A study of Mus musculus with 10 samples.

Results

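The genes described are 9 transcriptional regulators of the cap mesenchyme, the nephron progenitors that surround the tips of the ureteric bud: Six2, Six4, Eya1, Eya4, Sall1, Pax2, Osr1, Wt1 and Cited1. They were chosen as core regulators of these cells, and every probe set whose platform annotation gives a member as its only gene symbol was taken. This gave 17 probe sets of 8 genes, among 18193 genes measured in all. Pax2 had no such probe set and is not analysed here.

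Metanephric mesenchyme was profiled on 10 Affymetrix Mouse Genome 430 2.0 arrays. It is the part of the kidney rudiment that forms nephrons and stroma. The tissue was dissected at E11.5 and separated from the ureteric bud by brief digestion. The mutant group was 5 pools of Wnt9b-/- mesenchyme and the wild-type group 5 pools of mesenchyme from Wnt9b+/+ littermates, with 25 to 30 mesenchymes in each pool. The series' design text names Wnt9b+/- tissue as the other genotype, and the sample labels were followed here. All embryos came from intercrosses of Wnt9b+/- mice. The mutant allele is not described further in the labels. A pool mixes many embryos, so the spread between arrays is a spread between pools. In bulk tissue of this kind, fewer cap cells and less RNA per cap cell cannot be told apart.

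Wnt9b is a secreted Wnt ligand of the ureteric bud that acts on the neighbouring mesenchyme. Six-family proteins are homeodomain transcription factors. Eya proteins do not bind DNA themselves and join Six-family proteins as co-activators, and Pax, Sall, Osr and Wt1 proteins act beside them in the early kidney. The network keeps progenitors in the cap and turns on Gdnf, the signal that draws out the ureteric bud. The comparison of genotypes asks how the transcripts of these regulators stand in mesenchyme without the ligand.

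The 4 stretches printed next are the 250 bases before an annotated start of 4 members, from RefSeq's annotation of GRCm38.p6. They are shown because Six2, Cited1 and Sall1 averaged lower in the mutant while the Six4 difference lay close to 0, so that the letters upstream of members on both sides can be seen. For Six2, Cited1 and Sall1 the window is that of the outermost annotated start. For Six4 it is that of the inner start, taken because it holds a motif match. The window of the outermost Six4 start among those read (chr12:73113426-73113675) holds none of the motifs searched. The annotated Six4 gene extends to position 73114031, so both Six4 windows lie inside it, and the bases before that boundary were not searched. The 4 stretches run 5′ to 3′ on the minus strand. Capitals mark a match to CTTTGA, the core of the site bound by TCF/LEF factors of the Wnt pathway, or to TCANGTTTC, a site known to bind Six-family proteins, on either strand. The motifs do not overlap each other in these windows.
Six2, chr17:85688255-85688504: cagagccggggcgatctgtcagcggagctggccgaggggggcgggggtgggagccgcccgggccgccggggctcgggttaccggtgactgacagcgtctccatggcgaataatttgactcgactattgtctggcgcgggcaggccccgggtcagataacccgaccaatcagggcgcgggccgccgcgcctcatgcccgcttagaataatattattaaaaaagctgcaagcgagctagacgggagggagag
Cited1, chrX:102252182-102252431: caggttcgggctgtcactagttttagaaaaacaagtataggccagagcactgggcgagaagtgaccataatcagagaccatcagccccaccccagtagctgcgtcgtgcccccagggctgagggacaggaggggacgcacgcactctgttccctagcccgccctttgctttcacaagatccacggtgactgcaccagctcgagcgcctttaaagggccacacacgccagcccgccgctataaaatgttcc
Sall1, chr8:89044163-89044412: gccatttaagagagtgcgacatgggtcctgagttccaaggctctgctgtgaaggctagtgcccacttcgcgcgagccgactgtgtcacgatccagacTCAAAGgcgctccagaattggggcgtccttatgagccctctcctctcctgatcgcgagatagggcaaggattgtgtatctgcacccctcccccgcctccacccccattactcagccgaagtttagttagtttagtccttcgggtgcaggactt
Six4, chr12:73113246-73113495: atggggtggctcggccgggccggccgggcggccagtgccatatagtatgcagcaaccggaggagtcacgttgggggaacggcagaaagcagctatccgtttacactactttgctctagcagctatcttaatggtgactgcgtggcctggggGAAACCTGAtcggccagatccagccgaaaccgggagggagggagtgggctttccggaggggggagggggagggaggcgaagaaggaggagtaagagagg
The table of promoters held 6 of the 9 members with 14 annotated starts between them. Eya1, Osr1 and Wt1 were not in it. The TCF/LEF core was in 1 of these 14 windows, that of Sall1, where it lies on the opposite strand with its first base at -153 from the start. Of 27025 promoters of the same length, 1 per gene, 14.1% held that motif. The Six-family motif was also in 1 of the 14, that of Six4 above, at -99 on the opposite strand, against 1.03% of all promoters. GCGTGGG, the core shared by Wt1 and Egr sites, was in 1 window of another Sall1 start (chr8:89042863-89043112, minus strand), against 4.18% of all promoters. The shares over all promoters use only the outermost start of each gene, while the 14 windows include inner starts. Of the outermost starts of the 6 members, 1 held the TCF/LEF core, that of Sall1. The Six-family and Wt1/Egr matches lay at inner starts, so these shares are not a like comparison for them. The matches are descriptions of letters in these windows.

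In the mutant, 7 of the 8 measured regulators averaged lower and 1 higher, with a median difference of -0.47 in log2(signal + 1), abbreviated to log2 signal. Over all 18193 genes 45.1% averaged lower, and the median difference was 0.02. The genes with the lower averages were Cited1, Eya1, Six2, Wt1 and Sall1, between -1.11 and -0.42, while Osr1 and Six4 lay within 0.04 of 0 and Eya4 averaged higher. Differences are mutant minus wild type, the brightest probe set over all arrays stands for each gene, and the test was limma with Benjamini-Hochberg adjustment over all genes, two-sided. None of the 8 regulators passed at an adjusted p under 0.05, a threshold that 1 of all genes (0.0055%) passed, in the lower direction. At an unadjusted p under 0.05, 4 of the 8 were lower and 0 higher, against 2.08% of all genes lower and 3.41% higher. The mutant and wild-type values did not overlap for 2 of the 8, both lower, against 0.555% of all genes lower and 0.654% higher.

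**Figure D1:**
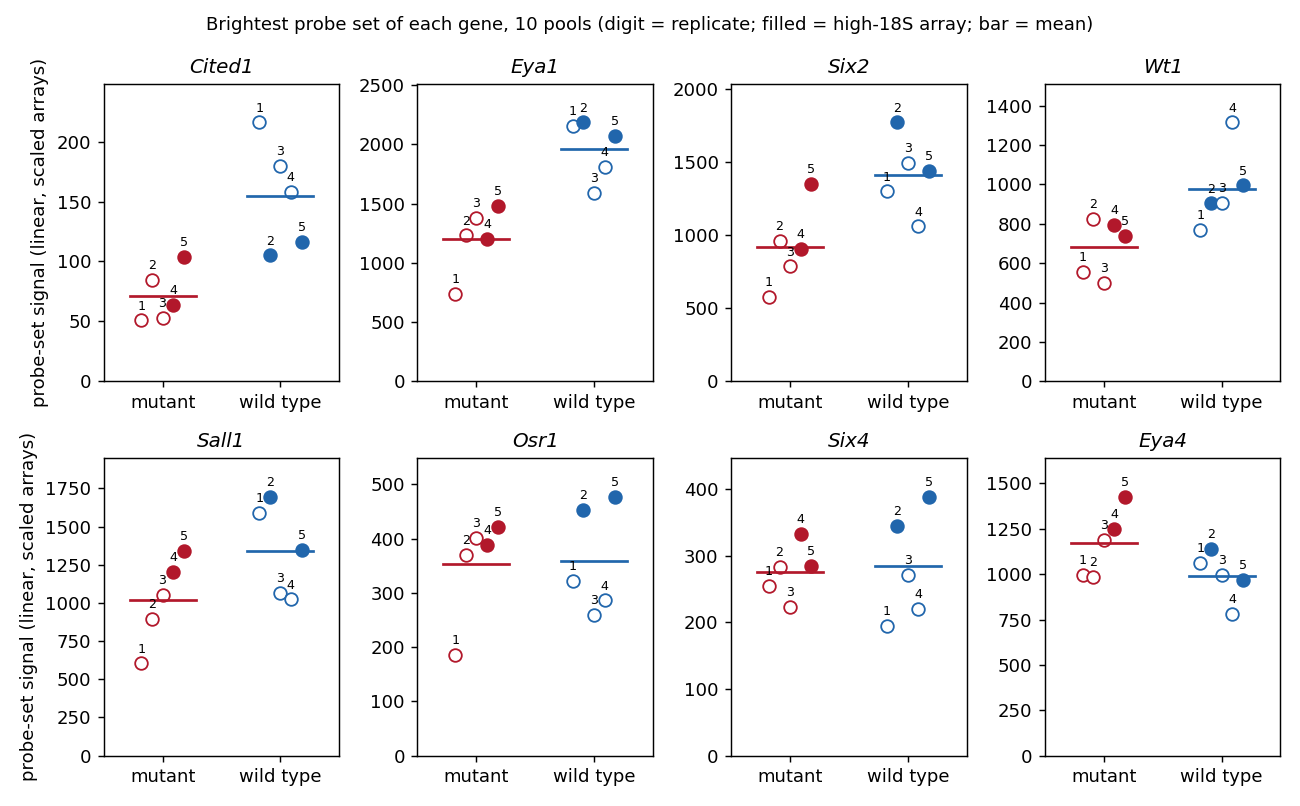
Probe-set signal on a linear axis from 0 for the brightest probe set of each of the 8 genes, mutant pools at the left and wild-type pools at the right of each panel. Each point is 1 array, the digit is its replicate number, filled points are arrays with a high 18S control signal and bars are group means. Cited1 and Eya1 do not overlap between the groups, and mutant replicate 1 is the lowest of all arrays for 5 genes.

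Six2 encodes the homeodomain factor that keeps nephron progenitors self-renewing. Its signals were 580, 963, 787, 905 and 1350 in mutant replicates 1 to 5, against 1301, 1774, 1496, 1061 and 1440 in wild-type replicates 1 to 5. Mutant replicate 5 lay among the wild-type arrays and the other mutant arrays lay below all of them, so the groups overlap through 1 array. The log2 signal averaged 9.79 ± 0.44 in the mutant and 10.45 ± 0.27 in wild type (SD, n = 5 each), a difference of -0.66 (SE 0.22, 95% interval -1.16 to -0.16). Mutant signal was 63.3% of wild type. The limma p was 0.0150 before adjustment and 0.785 after it, and 1.90% of all genes had a smaller p. Six2 had a single probe set. The difference was -0.51 without mutant replicate 1 and -0.81 without mutant replicate 5, the ends of its range when each array was left out in turn.

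Six4, another Six-family gene of the early kidney, had 4 probe sets. The brightest gave 255, 283, 223, 332 and 285 in mutant replicates 1 to 5, against 195, 344, 271, 220 and 388 in wild-type replicates 1 to 5. The wild-type arrays spanned the mutant ones at both ends. The difference was -0.01 (SE 0.20, 95% interval -0.46 to 0.45, limma adjusted p = 0.999). This interval leaves room for a mutant level 1.38-fold lower or one that is higher by a similar factor. The other 3 probe sets gave -0.07, -0.05 and -0.05, the middle one at signals of only 2.62 to 27.0 over the 10 arrays.

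The log ratio of Six2 to Six4 within an array averaged 1.69 ± 0.40 in the mutant and 2.34 ± 0.31 in wild type (SD, n = 5 each). The ratio compares how the genes moved and says nothing of which is more abundant. Its difference between genotypes was -0.65, with 4 of 5 mutant arrays below every wild-type array. It was -0.29 in the 4 arrays whose 18S ribosomal RNA control probe set read 1975 to 2587 (the high-18S arrays) and -0.90 in the other 6, at 92.4 to 322. This ratio and that of Eya1 to Eya4 were chosen with the values of these genes known, so both are given as descriptions with no test.

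Eya1 encodes a co-activator and phosphatase without which the metanephric kidney does not form. Its brightest probe set gave signals of 735, 1232, 1377, 1202 and 1483 in mutant replicates 1 to 5, against 2159, 2186, 1592, 1811 and 2070 in wild-type replicates 1 to 5. Every mutant array lay below every wild-type array, with the nearest pair at 1483 in the mutant and 1592 in wild type. The log2 signal averaged 10.20 ± 0.40 in the mutant and 10.93 ± 0.20 in wild type (SD, n = 5 each). The difference was -0.73 (SE 0.20, 95% interval -1.17 to -0.30), a mutant signal 60.2% of wild type, with a limma p of 0.00384 before adjustment and 0.552 after it. The other probe sets of Eya1 also averaged lower in the mutant, at -0.86 and -0.56, but their groups overlapped. For the dimmer of these the signals were 59.5 to 222 in the mutant and 167 to 282 in wild type, and mutant replicate 3 alone lay within the wild-type range. For the other they were 131 to 473 in the mutant and 304 to 541 in wild type.

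Eya4, a paralog known best for its role in hearing, was the 1 regulator that averaged higher. Its brightest probe set gave 997, 984, 1189, 1250 and 1426 in mutant replicates 1 to 5, against 1062, 1140, 996, 781 and 967 in wild-type replicates 1 to 5. The upper 3 mutant arrays lay above all wild-type arrays and the other mutant arrays within their range. The difference was 0.24 (SE 0.15, 95% interval -0.09 to 0.57, limma adjusted p = 0.959). The other probe sets gave 0.11, 0.19 and 0.01, the first at signals of 5.55 to 67.2 over the arrays.

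The log ratio of Eya1 to Eya4 averaged 0.02 ± 0.29 in the mutant and 0.99 ± 0.20 in wild type (SD, n = 5 each). All 5 mutant ratios lay below all 5 wild-type ratios, the highest mutant one at 0.32 and the lowest wild-type one at 0.68. The difference was -0.97. In the high-18S arrays it was -1.02 and in the low-18S arrays -0.94. It sets the regulator with a lower average and no overlap against the only one with a higher average, and neither gene was called.

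Cited1 encodes a transcriptional co-regulator that binds the acetyltransferases Crebbp and Ep300 rather than DNA, and marks the least differentiated cap cells. It was the dimmest of the 8 and had the most negative difference. Its signals were 50.8, 84.6, 52.9, 63.9 and 104 in mutant replicates 1 to 5, against 216, 105, 180, 158 and 116 in wild-type replicates 1 to 5. The groups did not overlap, but mutant replicate 5 and wild-type replicate 2 were nearly equal, and under median centring or quantile normalization they overlapped. The log2 signal averaged 6.12 ± 0.44 in the mutant and 7.23 ± 0.43 in wild type (SD, n = 5 each), a difference of -1.11 (SE 0.26, 95% interval -1.69 to -0.53). Mutant signal was 46.2% of wild type, and the limma p was 0.00163 before adjustment and 0.496 after it. By this p Cited1 ranked 60 among 18193 genes. In the 4 high-18S arrays it differed by -0.43 and in the other 6 by -1.57, and whether these differ was not tested.

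Sall1 encodes a zinc-finger protein that recruits the NuRD repressor complex and is needed for the ureteric bud to grow into the mesenchyme. Its signals were 604, 898, 1051, 1203 and 1342 in mutant replicates 1 to 5, against 1590, 1695, 1064, 1023 and 1345 in wild-type replicates 1 to 5. The lowest wild-type arrays lay among the mutant ones. The difference was -0.42 (SE 0.24, 95% interval -0.95 to 0.11, limma adjusted p = 0.946), and -0.24 without mutant replicate 1. A dimmer probe set gave -0.66 with a 95% interval of -1.50 to 0.17, where mutant replicate 1 had a signal of 43.0 against 143 to 171 in the other mutant arrays and 146 to 291 in wild type.

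Wt1, a zinc-finger factor of the mesenchyme that is required for the kidney to survive its first steps, was read by a single probe set. Its signals were 556, 826, 500, 794 and 738 in mutant replicates 1 to 5, against 771, 904, 905, 1315 and 995 in wild-type replicates 1 to 5. Wild-type replicate 1 lay below the 2 highest mutant arrays, and all other wild-type arrays lay above every mutant array. The difference was -0.52 (SE 0.19, 95% interval -0.95 to -0.10), a mutant signal 69.6% of wild type, with a limma p of 0.0211 before adjustment and 0.829 after it.

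Osr1, a zinc-finger gene that marks the intermediate mesoderm before the kidney forms, had signals of 185, 370, 402, 389 and 422 in mutant replicates 1 to 5, against 322, 453, 259, 286 and 477 in wild-type replicates 1 to 5. Mutant replicate 1 lay below all other arrays and the remaining mutant arrays within the wild-type range. The difference was -0.04 (SE 0.27, 95% interval -0.63 to 0.56, limma adjusted p = 0.999). Without mutant replicate 1 it was 0.18. The interval is wide on both sides of 0, so an equal level is not shown.

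**Figure D2:**
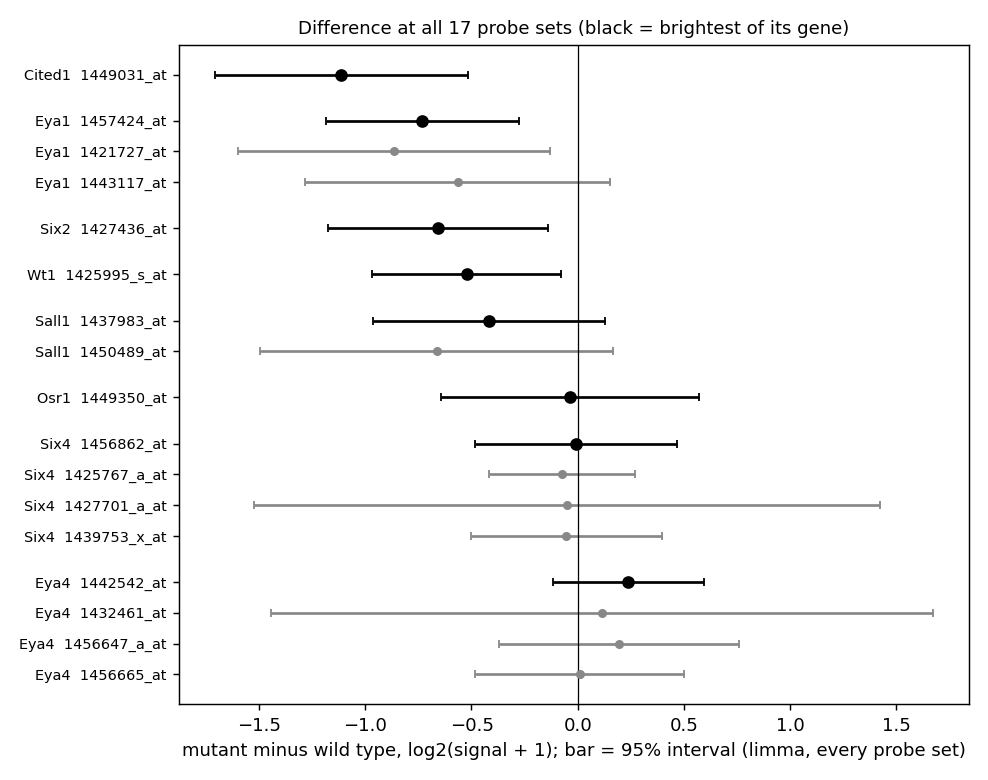
Mutant minus wild-type difference in log2(signal + 1) for all 17 probe sets, with 95% intervals from limma fitted over every probe set. Black marks the brightest probe set of a gene and grey the others. The probe sets of Eya1 and Sall1 lie left of 0, but the intervals of Sall1 and of the Eya1 probe set at -0.56 include 0. Those of Six4 and Eya4 lie near 0 with intervals that include it.

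With every probe set fitted on its own, 13 of the 17 averaged lower in the mutant and 4, all of Eya4, higher. None of the 17 was called, against 0.00444% of the 45037 non-control probe sets. At an unadjusted p under 0.05, 5 were lower, those of Six2, Wt1 and Cited1 and 2 of Eya1, against 1.95% of all probe sets. The groups did not overlap for 2 of the 17, one of Cited1 and one of Eya1, against 0.424% of all probe sets in the lower direction. Probe sets of 1 gene read the same RNA and are not independent. The probe-set plot shows that those of a gene gave the same sign in the 4 genes that had several.

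The arrays fell into high and low 18S control signal, 4 and 6 arrays, each set with as many mutant as wild-type pools. Six2 differed by -0.53 in the high set and -0.74 in the low set, Eya1 by -0.67 and -0.77, Wt1 by -0.31 and -0.67, and Sall1 by -0.25 and -0.53. These 4 and Cited1 were lower in both sets. Osr1 had -0.20 and 0.07, and Six4 -0.25 and 0.15, so their sign depended on the set. Eya4 was higher in both, by 0.35 and 0.17. With the 18S sets as a block in the limma fit the 95% interval was narrower for Six2, at -1.08 to -0.24, and for Six4, at -0.33 to 0.31. It was slightly wider for Cited1, at -1.72 to -0.50, and for Wt1, at -0.96 to -0.08. None of the 8 was called with the block, with limma adjusted p from 0.492 to 0.998, and 0 of all 18193 genes were.

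**Figure D3:**
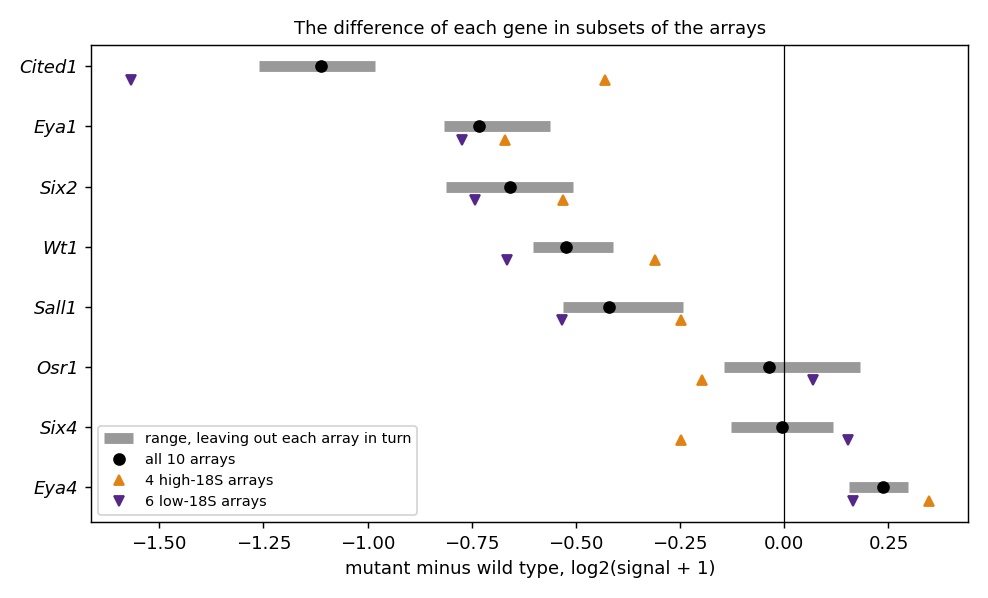
Mutant minus wild-type difference in log2(signal + 1) for each gene, with all 10 arrays (circle), within the 4 high-18S arrays and the 6 low-18S arrays (triangles), and its range when each array is left out in turn (grey bar). Cited1, Eya1, Six2, Wt1 and Sall1 stay left of 0 throughout, and the Osr1 and Six4 values lie on both sides of it.

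Mutant replicate 1 was below the mutant mean for all 8 genes and was the lowest of the 10 arrays for Six2, Eya1, Sall1, Osr1 and Cited1. Mutant replicate 5 was above the mutant mean for all 8. Within genotypes the regulators varied together only in part. Over the 28 pairs of genes, the Pearson correlation of deviations from the genotype means over the 10 arrays had a median of 0.29 and ran from -0.40 to 0.90. Six2, Eya1, Sall1, Osr1 and Eya4 formed a block with correlations of 0.55 to 0.90, highest for Eya1 with Osr1. Osr1 and Eya4 thus tracked Eya1 and Six2 from pool to pool, over both genotypes joined, while their means differed less between the genotypes. In the mutant, Eya1 with Osr1 was at 0.98, Six2 with Osr1 at 0.80, Eya1 with Eya4 at 0.68 and Six2 with Eya4 at 0.70. In wild type these pairs were at 0.77, 0.54, 0.49 and 0.87. Mutant replicate 1 was lowest for Six2, Eya1 and Osr1 alike, and these pairs were not examined without it. The deviations keep any difference between the 18S sets. All genes of the block, and Six4 outside it, averaged higher in the high-18S arrays in both genotypes. The part of the 18S sets in the correlations was not tested. Cited1 and Wt1 had correlations of at most 0.37 with any of the other genes. These values join genotypes that could differ, with 5 arrays in each. Six2 with Cited1 was at 0.92 in the mutant and -0.53 in wild type, Six4 with Wt1 at 0.88 in the mutant and 0.02 in wild type, and Six2 with Eya1 at 0.84 in the mutant and 0.28 in wild type. The points share arrays and scaling, and with the arrays centred on their medians the median correlation was 0.50, so the values are descriptions. Without mutant replicate 1 the median was 0.25.

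**Figure D4:**
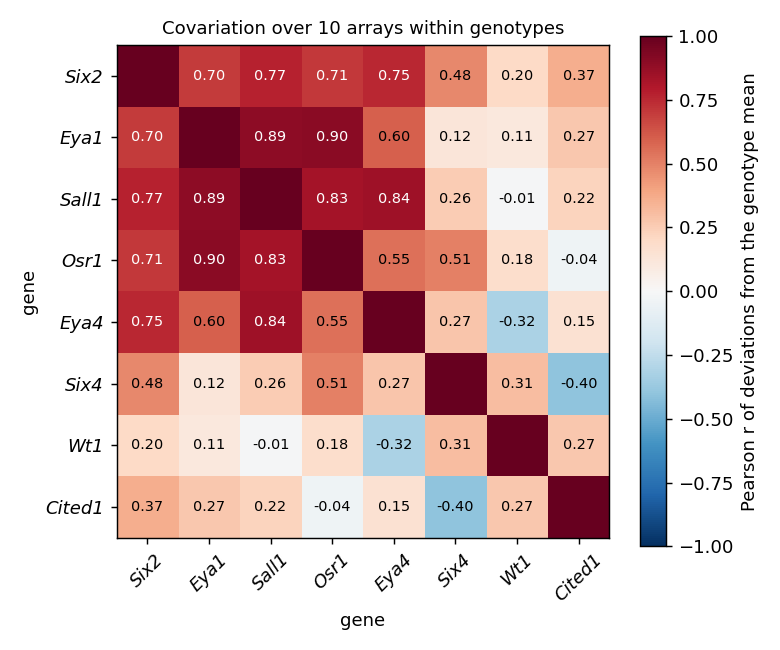
Pearson correlation over the 10 arrays between each pair of the 8 genes, after subtracting the genotype mean from each log2 signal. Six2, Eya1, Sall1, Osr1 and Eya4 correlate at 0.55 to 0.90, while Wt1 and Cited1 stay at or below 0.37 with all others. Differences between the high-18S and low-18S arrays were not subtracted.

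Genes that work with the regulators were taken from lists chosen with earlier results of these data known. Of 11 genes downstream of the regulators or in the same cells, 11 averaged lower in the mutant (median -0.57). None was called, against 0.0055% of all genes. At an unadjusted p under 0.05, 7 were lower, against 2.08% of all genes, and 6 were lower with no overlap, against 0.555%. Wnt4, the Wnt ligand of nephron induction, had the smallest p, with signals of 186 to 343 in the mutant and 484 to 558 in wild type (difference -1.08, SE 0.17, limma adjusted p = 0.283).

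Of the other Six-family, Eya and Dach genes, 7 were measured. Of these 4 were lower and 3 higher with a median difference of -0.01, and none had an unadjusted p under 0.05. Dach1, a co-regulator of Six-family proteins, had the smallest p at -0.55 (SE 0.27, limma adjusted p = 0.923). Eya3, a broadly expressed paralog, gave 395 to 450 in the mutant and 382 to 454 in wild type, a difference of -0.01 (SE 0.09). Its 95% interval of -0.22 to 0.20 is the narrowest of the Six-family and Eya genes named here. Eya2 was dim, with 2.60 to 54.6 in the mutant and 20.2 to 78.8 in wild type (difference -0.77, SE 0.74).

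Of the 14 other Sall, Osr, Pax and Cited genes 9 were lower and 5 higher (median -0.15). At an unadjusted p under 0.05, 3 were lower and 2 higher. Pax8, a paired-domain gene of the first nephron structures, had the smallest p, at -0.97 (SE 0.28, limma adjusted p = 0.662). The Hox11 genes, which act with Eya1 and Pax2, were measured for Hoxa11 and Hoxd11. Hoxa11 had 657 to 971 in the mutant and 692 to 858 in wild type (difference 0.05, SE 0.13), and Hoxd11 differed by 0.16 (SE 0.14). Among 22 cofactors 11 were lower and 11 higher, with a median of 0.01. Mta3, a subunit of the NuRD complex, had the smallest p in that list, with 348 to 381 in the mutant and 205 to 286 in wild type (difference 0.53, SE 0.11, limma adjusted p = 0.403).

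**Figure D5:**
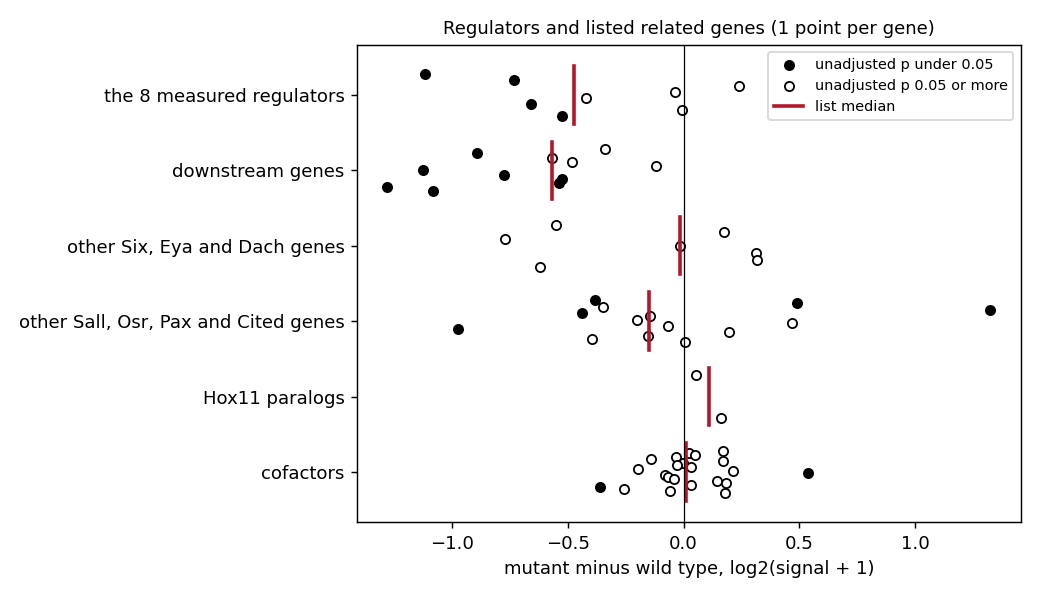
Mutant minus wild-type difference in log2(signal + 1), 1 point per gene, for the 8 measured regulators and 5 lists of related genes. Filled points have an unadjusted limma p under 0.05 and red bars are list medians. The list labelled downstream genes holds genes downstream of the regulators or in the same cells, and all lie left of 0. The cofactors are centred at 0.01.

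The targeted gene and the markers of other cells were read on the same arrays. Wnt9b gave signals of 41.8 to 106 in the mutant and 78.2 to 99.7 in wild type (limma adjusted p = 0.996), in tissue from which the bud that makes it had been removed. No source used here places its probe sets against the deletion, so the values check nothing about the labels. Of the mesenchyme's own genes outside the cap, Foxd1 of the stroma gave 2102 to 3344 in the mutant and 2026 to 2808 in wild type. Ureteric bud markers averaged lower in 6 of 15 genes (median 0.03), with a summed signal of 2177 to 5327 in the mutant and 2623 to 4157 in wild type. Their highest sum was in mutant replicate 1, the array lowest for 5 regulators. The next highest, 5012, was in mutant replicate 2, which was lowest for none of the regulators. Sox9 had the smallest p of that list, at 0.44. Renal stroma markers averaged higher in 9 of 11 (median 0.15), with sums of 20064 to 26929 in the mutant and 18969 to 22474 in wild type and Pdgfra at 0.36.

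Macrophage markers averaged higher in 10 of 10 (median 0.30), with sums of 1498 to 2911 in the mutant and 1551 to 2289 in wild type and C1qa at 0.73. Endothelial markers averaged higher in 10 of 10 (median 0.13), with sums of 3054 to 4008 in the mutant and 3071 to 3909 in wild type and Cdh5 at 0.26. Neuron and neural crest markers averaged higher in 4 of 6 (median 0.45), with sums of 1065 to 1648 in the mutant and 836 to 1067 in wild type and Gap43 at 0.64. Erythroid markers averaged higher in 6 of 8 (median 0.14), with sums of 29419 to 48746 in the mutant and 26688 to 55288 in wild type and Gata1 at 0.56. Nephric duct and early tubule markers averaged lower in 3 of 5 (median -0.12), with the dim Fgf8 at -2.46. Their sums were 1811 to 2295 in the mutant and 2029 to 2382 in wild type. Wnt4 and Pax8, given above, were in other lists. None of the marker genes was called, against 0.0055% of all genes. No marker was at 0 on all arrays, which does not show that each was detected, as no detection calls were available. Dim markers such as Fgf8 counted as much as bright ones in the medians. The part of other cells in the regulators' differences was not tested.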

How the data were processed

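The authors deposited 1 table of linear probe-set intensities, whose mean without the extreme 2% at either end was 250.0 on each array. No source used here names the summarisation algorithm or gives detection calls. Arrays were kept as deposited, since their medians lay within 0.5 (5.99 to 6.30) on log2(signal + 1). No filter on low values was set, so all 8 measured members stayed in. Control probe sets (64 of 45101) were left out. Symbols came from the platform annotation, updated through RefSeq gene identifiers, with 34945 probe sets of 1 symbol, 932 of several genes and 9160 unnamed. The brightest probe set represented each gene. The genotype test was lmFit and eBayes of limma 3.58.1 (R 4.3.3), checked on simulated data.

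The members, lists, tests and alternatives were chosen with earlier results of these data known. The text names all members, the gene with the smallest p of each list, and, whatever their values, Hoxa11, Eya2 and Eya3. Wnt9b is named as the targeted gene, and Foxd1, Ntn1, Pdgfrb, Uncx and Itga8 were named after their values were seen. The 5 genes most like Six2 were taken among genes with a mean log2 signal of at least 7. Hoxd11 has the smallest p of the Hox11 list. Promoters were read from RefSeq's table of GRCm38.p6. Replicates are numbered by accession order, as names that pair nothing. The number of arrays, 5 per genotype, limits the precision.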

Additional observations from a re-analysis of the deposited data

Results flagged for a closer look

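Within each group of 5 arrays, the gap of the lowest and highest array to its neighbour was set against the group's range for the 17 probe sets, 34 groups of values. By chance about 1 in 20 such groups (1.7 of them) would stand out, and 2 did, in both cases because mutant replicate 1 was far below the rest. For Osr1 its log2 signal was 7.54, where mutant replicates 2 to 5 had 8.53 to 8.72. For the dimmer Sall1 probe set it was 5.46, where they had 7.17 to 7.42.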

How the results depend on the processing

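Over 21 alternatives none of the 8 regulators was called, with the smallest adjusted p at 0.116. The same alternatives called only 0 to 10 of all genes. No probe set of the regulators was called in the alternatives run on single probe sets. Cited1, Eya1, Six2, Wt1 and Sall1 stayed lower and Eya4 higher in all 21. Leaving out each array in turn gave -1.26 to -0.98 for Cited1, -0.82 to -0.56 for Eya1, -0.81 to -0.51 for Six2, -0.60 to -0.41 for Wt1, -0.53 to -0.24 for Sall1, 0.16 to 0.30 for Eya4, -0.14 to 0.18 for Osr1 and -0.13 to 0.12 for Six4. Osr1 and Six4 changed sign in 4 and 5 alternatives, among them the low-18S arrays alone, with 0.069 and 0.15. The count of 4 with an unadjusted p under 0.05 was 3 to 4 on leaving out arrays, 1 (Eya1) in the 4 high-18S arrays alone, 3 in the low-18S arrays alone, and 5, with Sall1 added, under trend and robust moderation and with a block for shared title wording. In these alternatives 257 to 626 of all 18193 genes were lower and 467 to 679 higher at that limma threshold. The count of 2 without overlap was 2 to 3 on leaving out arrays, where 125 to 199 lower and 171 to 272 higher of all 18193 genes had no overlap. It was 1 on averaging all probe sets per gene (Cited1), beside 111 lower and 104 higher of all genes. With Eya1 alone it was 1 under quantile normalization (all genes, 112 lower and 122 higher) and 1 under median centring (101 lower and 109 higher). In the high-18S arrays alone it was 8, where 2 arrays stand against 2 and 3539 lower and 3027 higher of all 18193 genes have no overlap either. Apart from the construction of the small sets, the cause was not tested. The dim-gene filter, trend moderation and blocks leave the values as they are, and Cited1 and Eya1 had no overlap there too. No gene of the 5 related lists was called with all arrays (0), 2 were without the dimmest 40% of genes (Wnt4 and Uncx), where 6 of 10916 genes were called in all, and 3 with trend and robust moderation (those and Itga8), where 10 of 18193 were, the 3 all lower in the mutant. The median correlation among regulators was 0.25 to 0.51 on leaving out arrays.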

Other observations

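The regulators' levels were also set against the 18S control signal, with no test. In the mutant and in wild type alike, 6 of the 8 averaged higher in the high-18S arrays than in the low-18S ones, where 27.7% of all genes did so. Osr1 was higher by 0.42 in mutant and by 0.69 in wild-type arrays, and Sall1 by 0.62 and 0.33. Cited1 differed in sign between the genotypes, at 0.41 in the mutant and -0.73 in wild type, with 2 high-18S and 3 low-18S arrays in each genotype. Wt1 also differed in sign, at 0.32 and -0.04.

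The 5 genes whose pool-to-pool deviations were most like those of Six2, among 9274 bright genes over the 10 arrays, were Nell1 (Pearson r of 0.96), Foxc2 (0.95), Rfk (0.93), Wdr6 (0.93) and Dhrs3 (0.92). The arrays share scaling, and these are the highest of many values, so they are a description. Nell1 differed between the genotypes by -0.50 (SE 0.31), while the forkhead gene Foxc2 differed by 0.30 (SE 0.24), Dhrs3 by 0.25 (SE 0.16), Wdr6 by 0.23 (SE 0.16) and Rfk by 0.14 (SE 0.16), none of them called by limma.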
